A study of Homo sapiens with 10 samples.

Results

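The endoplasmic reticulum (ER)-associated degradation machinery was followed here through 10 genes, namely SEL1L, SYVN1, HERPUD1, DERL1, DERL2, DERL3, OS9, ERLEC1, UBE2J1 and VIMP (the older symbol of SELENOS). They were taken by symbol from a table of read counts for 32738 genes, by a rule that uses no measured value. The list of symbols was drawn up with earlier results of these data known. Of the 10, 9 had enough reads to be tested among 12733 genes, and DERL3 had a count of 0 in all 10 libraries. The libraries were made from HepG2, an established line of human hepatoma cells. Control cells were kept in ordinary growth medium, whereas treated cells received medium with 2 µg/ml tunicamycin, both for 17 h. There were 5 control and 5 tunicamycin libraries, from replicate experiments carried out on separate days. The groups therefore describe a single cell line at a single dose and time. RNA was sequenced from the 3′ end of polyadenylated transcripts, which yields about 1 fragment per transcript, so that read counts of different genes were compared without division by transcript length.

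ER-associated degradation (ERAD) removes proteins that fail to fold in the ER. Lectins in the ER lumen recognise such proteins by their trimmed N-linked sugars, membrane proteins move them to the cytosol, an E2 enzyme and an E3 ligase attach ubiquitin, and the ATPase p97 extracts them for the proteasome. In the best known branch, SYVN1 (HRD1) is the ubiquitin ligase of the membrane, SEL1L is its partner and adaptor, and HERPUD1 is a ubiquitin-like membrane protein that joins the complex. UBE2J1 is a membrane-anchored E2 enzyme, the derlins DERL1, DERL2 and DERL3 are membrane proteins of the rhomboid family that take part in moving the substrate, VIMP links p97 to the derlins, and OS9 and ERLEC1 are the sugar-binding lectins. Tunicamycin blocks the first step in building the N-linked sugar chain. Unglycosylated proteins then misfold and cells mount the unfolded protein response, whose transcription factors ATF6, XBP1 and ATF4 are known to induce genes of this machinery.

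Promoter sequences are shown here because members that move together can be read beside the short motifs that these factors are known to bind. RefSeq promoters (build GRCh38.p14, 250 bases before to 50 bases after the gene start) were found for 8 of the 10 members, and DERL1 and DERL3 were without an entry. Each was searched on both strands for the ER stress response element (CCAAT and CCACG, 9 bases apart), ERSE-II (ATTGG and CCACG, 1 base apart), the unfolded protein response element TGACGTGG and its core ACGTGG, and the C/EBP-ATF composite element TTGCATCA. In the stretches below, read 5′ to 3′ on the strand of the gene, capitals mark the matches, and the core also appears as its reverse complement CCACGT.
HERPUD1, chr16:56931954-56932048, plus strand: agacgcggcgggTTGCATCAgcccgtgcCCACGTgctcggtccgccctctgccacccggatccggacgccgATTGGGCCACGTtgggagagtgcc
UBE2J1, chr6:89352934-89352965, minus strand: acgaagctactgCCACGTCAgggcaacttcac
SYVN1, chr11:65134622-65134651, minus strand: attgctatgggcCCACGTagggcgcagtgc
OS9, chr12:57694009-57694038, plus strand: aggaccttggagCCACGTttacaaatagga
OS9, chr12:57694034-57694063, plus strand: taggaatagggtACGTGGgagggatagaac
VIMP, chr15:101277486-101277509, minus strand: cgtccgggcgcgCCACGTgtgcgt

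HERPUD1 held 3 kinds of match in a single promoter. The composite element lay at -176 to -169 and ERSE-II at -117 to -107 from the gene start, and the core was matched at -160 and, overlapping ERSE-II, at -111. UBE2J1 was the member with the longer unfolded protein response element, on the reverse strand at -231 to -224, where the core overlapped it. SYVN1 and VIMP held the core at -120 and -12, OS9 held it at -111 and -86, and ERLEC1 held it downstream of the start at 33 to 38. The matches of OS9 and VIMP were upstream of the RefSeq start but inside the gene span of the GENCODE v44 annotation, which begins further upstream. Among all 35116 promoters of the same length the core was common, at 9.72%, against 6 of the 8 members. The other elements were rarer, with 0.0541% of all promoters for ERSE-II, 0.729% for the unfolded protein response element, 0.866% for the composite element and 0.0769% for the full ER stress response element, which matched 0 of the 8 members. None of these letters was found in the windows of SEL1L and DERL2. A match is a description of the sequence and no binding was measured.

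Before the values, the libraries were examined. Total counts ranged from 4242538 to 4888292 in control and from 2234682 to 5029864 in tunicamycin libraries, with the lowest in tunicamycin replicate 5, and mitochondrial genes took 22.7 to 25.2% and 18.3 to 28.8% of the counts. The hepatocyte markers ALB, AFP, TTR, APOA1, APOB, SERPINA1, FGB and HNF4A had counts in every library, and their summed normalized counts were 61240.5 to 77069 in control and 48069 to 53874 in tunicamycin libraries. Of 8 markers of other liver cell types 7 were measured. They summed to 129 to 199 in control and 66.7 to 202 in tunicamycin libraries, mostly from ACTA2 and CD68, whereas PTPRC was at 0 in all 10 libraries. The hepatocyte markers did not move together. APOB (30730.5 to 34800 in control, 15147 to 23527 with tunicamycin), APOA1, FGB and TTR were lower in all 5 tunicamycin libraries, whereas the ranges of ALB (9077 to 13025 and 9411 to 13397), AFP and SERPINA1 overlapped and HNF4A had ranges of 380 to 487 and 465 to 589. The part of these differences in the results was not tested.

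Bulk RNA was measured, in which a higher level in every cell and a higher share of cells with the RNA cannot be told apart. All 9 tested members were higher with tunicamycin. Each passed edgeR's quasi-likelihood test with Benjamini-Hochberg adjustment over all tested genes, with log2 fold changes from 0.63 for OS9 to 2.78 for HERPUD1 and a median of 1.33. Among all tested genes 17.6% were called higher, and the median log2 fold change was 0.00; 2237 genes were higher and 2116 lower, against 1774 and 2570 when libraries were scaled by their totals alone, where the 9 members were still higher. For each of the 9 genes every tunicamycin library lay above every control library, a separation seen in 11.7% of all tested genes, and the tunicamycin library was the higher in 5 of 5 replicate experiments. An exact two-sided permutation test gave an unadjusted p = 0.00794 for each of the 9, the smallest value that 5 against 5 libraries allow. This p follows from the separation and adds no further evidence. In a test against a 2-fold change, 5 members passed, HERPUD1, SEL1L, SYVN1, VIMP and UBE2J1, where 1.15% of all tested genes were called more than 2-fold higher.

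**Figure D1:**
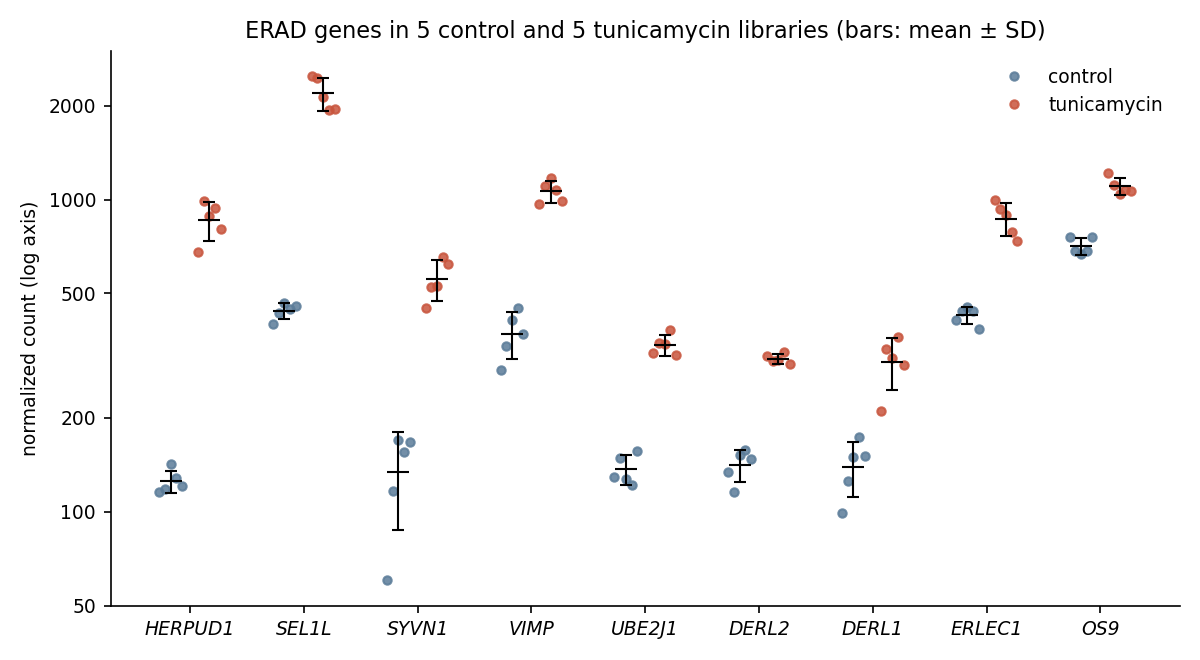
Normalized read count (log axis) of the 9 detected ERAD genes in each of the 5 control and 5 tunicamycin HepG2 libraries; each point is a library. In all 9 genes the tunicamycin points lie above the control points. The fold change is smallest for OS9 (667 to 760.04 against 1042 to 1216) and largest for HERPUD1 (115 to 142 against 677 to 986). The ranges come closest in DERL1 (98.99 to 173 against 210.3 to 364).

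The largest estimates belonged to the membrane ligase complex. HERPUD1, the ubiquitin-like partner of SYVN1, had normalized counts (counts scaled to a common library size) of 115, 119, 142, 128 and 121 in control replicates 1 to 5 and of 677, 986, 882, 938 and 807 in the tunicamycin replicates. The lowest treated library thus stood far above the highest control. Its mean went from 125 ± 10.5 to 858 ± 121 (SD, n = 5), a log2 fold change of 2.78 (SE 0.11) with an edgeR adjusted p of 1.13e-12. HERPUD1 ranked 45 of 12733 genes by log2 fold change, which is the 99.7 percentile, and it also passed the test against 2-fold (edgeR adjusted p = 2.08e-10). Of the 8 member windows, 1 held ERSE-II and 1 held the composite element, in each case that of HERPUD1. A link between these matches and the change was not tested.

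SEL1L, the adaptor that holds the lectins to the ligase, had 399, 432, 466, 447 and 457 normalized counts in the controls against 2487, 2447, 2130.2, 1932 and 1955 with tunicamycin. The groups were far apart, and the control libraries varied little among themselves (coefficient of variation 5.95%, the lowest of the 9 members in control). The mean went from 441 ± 26.2 to 2190.3 ± 265 (SD, n = 5), 4.98-fold, with a log2 fold change of 2.31 (SE 0.10) and an edgeR adjusted p of 1.65e-12. It ranked 82 of all tested genes, and the change exceeded 2-fold (edgeR adjusted p = 1.54e-09). SEL1L was among the members whose promoter window held none of the motifs.

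SYVN1, the ligase itself, was measured at 60.3, 117, 169.7, 155 and 168 normalized counts in control and at 449, 524, 527, 657 and 619 with tunicamycin. Replicate 1 was the lowest library in both groups, and the controls spread more for SYVN1 than for any other tested member, with a coefficient of variation of 34.6%. The mean went from 134 ± 46.3 to 555 ± 82.8 (SD, n = 5). The log2 fold change was 2.05 (SE 0.19, edgeR adjusted p = 1.44e-07), and it was 1.86 without control replicate 1. Within the replicate experiments the log2 difference was between 1.63 and 2.89, with the highest in replicate 1. Under GENCODE v44, 356 exon bases of SYVN1 are shared with MRPL49 on the opposite strand and 193 with FAU and a microRNA on its own strand, and the study's methods give a pipeline at default settings without naming its handling of strand.

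UBE2J1, the membrane-anchored ubiquitin-conjugating enzyme, had control values of 129, 149, 127, 122 and 157 normalized counts. With tunicamycin they were 322, 347, 344, 383 and 317, so the lowest treated value was above 2 times the highest control value. The mean rose from 137 ± 15.1 to 343 ± 26.4 (SD, n = 5), a log2 fold change of 1.33 (SE 0.10, edgeR adjusted p = 1.23e-08). The excess over 2-fold was narrow, with an edgeR adjusted p of 0.0295 in the test against 2-fold, and that call was lost in 10 of the 18 alternative fits, where p reached 0.587. These included the fits without control replicate 1, 3 or 4 and without tunicamycin replicate 2, 3 or 4. The higher level itself was called in all 18.

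VIMP, a selenoprotein of the ER membrane that recruits p97, was at 285, 341, 410.3, 451 and 372 normalized counts in control libraries. The tunicamycin libraries gave 965, 1102, 1176, 1073 and 993. Both groups were lowest in replicate 1, yet the groups did not overlap. The mean went from 372 ± 63.7 to 1062 ± 85.001 (SD, n = 5), 2.86-fold, with a log2 fold change of 1.52 (SE 0.11) and edgeR adjusted p of 4.5e-09. The increase exceeded 2-fold (edgeR adjusted p = 0.00142).

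DERL2 had 134, 116, 151, 158 and 147 normalized counts in control and 315, 304, 305, 324 and 297 with tunicamycin. Its treated libraries were the most uniform of any member, with a coefficient of variation of 3.49%. The mean went from 141 ± 16.6 to 309 ± 10.8 (SD, n = 5), with a log2 fold change of 1.13 (SE 0.10, edgeR adjusted p = 9.09e-08). DERL1, its relative, was measured at 98.99, 125.7, 149.6, 173 and 150.4 in control and at 210.3, 332, 311, 364 and 295 in treated libraries. Replicate 1 was again the lowest in both groups. The mean of DERL1 went from 139.5 ± 28.1 to 302 ± 57.7 (SD, n = 5), a log2 fold change of 1.11 (SE 0.15, edgeR adjusted p = 1.5e-05). Neither derlin passed the test against a 2-fold change.

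DERL3, the third derlin, was listed at 0 counts in each of the 10 libraries. A count of 0 allows up to 3 counts, which corresponds to 0.596 CPM (the usual scaling of a count by its library total) in the deepest library and 1.34 CPM in the shallowest, for counting error only. In GENCODE v44, 2923 of the 3796 exon bases of DERL3 on chromosome 22 also lie in exons of SMARCB1 on the opposite strand. If reads were assigned without strand, those in the shared bases could not be told apart, so the 0 does not show that DERL3 was unexpressed.

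The lectins OS9 and ERLEC1, which bind trimmed N-linked sugars on substrates, had the smallest estimates among the members. That of ERLEC1 was close to those of DERL1 (log2 1.11) and DERL2 (log2 1.13), and the difference was not tested. Without control replicate 1 the estimate of DERL1 (1.01) was below that of ERLEC1 (1.02). ERLEC1 was at 411, 441, 453, 438 and 384 normalized counts in control and at 993, 934, 889, 787 and 734 with tunicamycin. The groups were apart, and the mean went from 425 ± 27.6 to 868 ± 106 (SD, n = 5), a log2 fold change of 1.03 (SE 0.09, edgeR adjusted p = 1.01e-07). OS9 had 760.04, 684, 667, 685 and 757 normalized counts in control and 1216, 1113, 1042, 1070.2 and 1063 with tunicamycin. Its mean went from 710.5 ± 44.6 to 1101 ± 69.4 (SD, n = 5), which is 1.55-fold, with a log2 fold change of 0.63 (SE 0.08, edgeR adjusted p = 6.84e-06). OS9 had the highest level of the 9 genes in control cells and stood at the 86.7 percentile of all fold changes, below the 94.2 percentile of ERLEC1. In GENCODE v44 exons of OS9 overlap AGAP2 on the opposite strand and the antisense transcript AGAP2-AS1 on the same strand, and reads in the shared bases are uncertain.

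**Figure D2:**
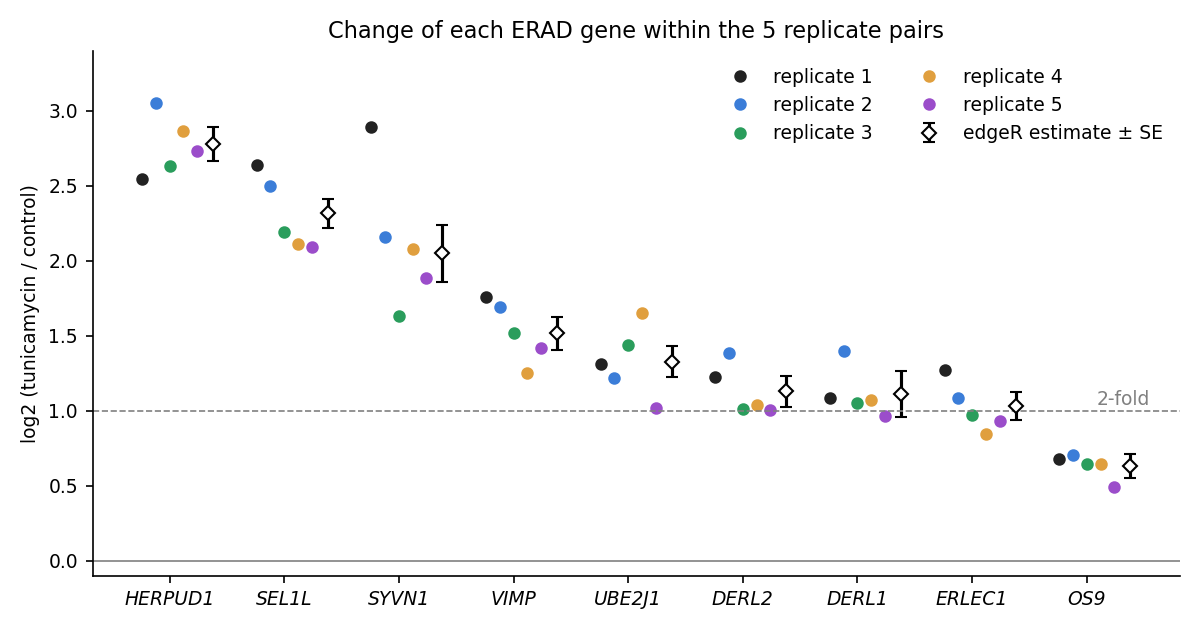
Log2 change in each of the 5 replicate experiments (points, tunicamycin minus control of the same number) and the fitted log2 fold change with its SE for the 9 detected ERAD genes, with a line at a 2-fold change. All points are above 0, and the spread within a gene is widest for SYVN1, from 1.63 to 2.89, and narrow for OS9, from 0.49 to 0.70.

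The order of levels changed with the treatment. In control cells OS9 came first and did not overlap the next genes, SEL1L, ERLEC1 and VIMP, whose ranges overlapped from neighbour to neighbour. After a second gap came DERL2, DERL1, UBE2J1, SYVN1 and HERPUD1, whose neighbouring ranges also overlapped. With tunicamycin SEL1L was first, without overlap, followed by OS9, VIMP, ERLEC1 and HERPUD1 with overlapping neighbours. SYVN1 then stood apart from both HERPUD1 above it and UBE2J1 below, and UBE2J1, DERL2 and DERL1 overlapped. HERPUD1 thus moved from the last place to a level within the range of the lectin ERLEC1.

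Together the 9 genes accounted for 618 ± 36.4 CPM of all counts in control and 1688 ± 132 CPM with tunicamycin (SD, n = 5), 2.73-fold more. The make-up of this pool shifted. SEL1L took 16.8 ± 0.362% of it in control and 28.8 ± 2.66% with tunicamycin, and HERPUD1 went from 4.76 ± 0.268% to 11.3 ± 1.43%. OS9 went the other way, from 27.2 ± 2.95% to 14.5 ± 0.946%, and so did ERLEC1, from 16.3 ± 1.32% to 11.4 ± 1.08%, although both genes had higher counts in the treated cells. The share of VIMP was 14.1 ± 1.68% and 14.0 ± 1.02%. These shares add up to a fixed total, so a gain in some genes lowers the others, and they are given as a description without a test.

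**Figure D3:**
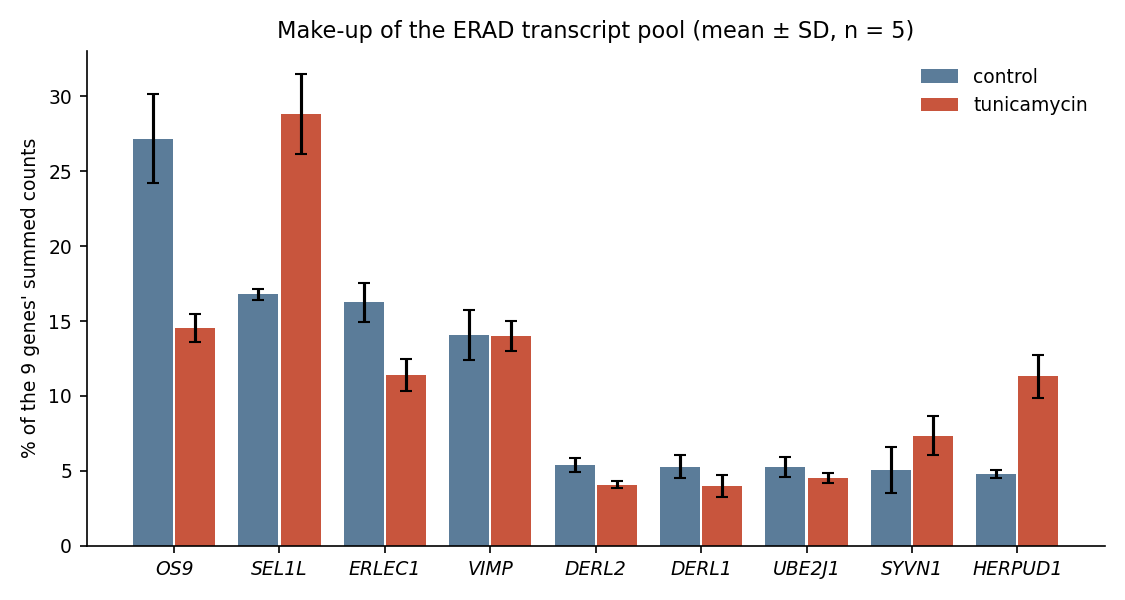
Share of each gene in the summed counts of the 9 detected ERAD genes, in percent (bars are means of 5 libraries per condition, error bars are SD). The bars of SEL1L are at 16.8% in control and 28.8% with tunicamycin, those of HERPUD1 at 4.76 and 11.3%, and those of OS9 at 27.2 and 14.5%.

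Whether partners in the machinery responded to a different extent was asked with ratios of normalized counts within a library, which do not depend on how libraries are scaled. There were 9 planned pairs, of which DERL3 to DERL2 could not be tested, and the exact two-sided permutation p-values of the other 8 were Benjamini-Hochberg adjusted. Of these, 5 ratios passed, each at an exact permutation p of 0.00794, the smallest value possible, and 0.0127 after adjustment.

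Within the ligase complex, the log2 ratio of SEL1L to SYVN1 was 1.81 ± 0.54 in control and 1.98 ± 0.38 with tunicamycin (SD, n = 5), a difference of 0.18 (SE 0.30) that was within the spread between libraries (exact permutation p = 0.563, adjusted 0.644). The ranges overlapped, and replicate 1 gave the highest ratio in both groups, at 2.72 and 2.47. Leaving out each library in turn moved the difference between 0.06, without tunicamycin replicate 1, and 0.41, without control replicate 1 (adjusted exact permutation p = 0.109), and it passed in no such fit. HERPUD1 to SYVN1 went from -0.01 ± 0.55 to 0.63 ± 0.21, a difference of 0.64 (SE 0.26) that did not pass (exact permutation p = 0.0556, adjusted 0.0741). That result depended on control replicate 1, where SYVN1 was lowest: without it the difference was 0.87 and the adjusted exact permutation p was 0.0212. The E2 enzyme rose less than the ligase. UBE2J1 to SYVN1 fell from 0.12 ± 0.62 to -0.69 ± 0.19, a difference of -0.80 (SE 0.29, adjusted exact permutation p = 0.0127), and the difference was -0.56 without control replicate 1.

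Between the lectins, the ratio of OS9 to ERLEC1 declined from 1.67 to 1.27, a log2 difference of -0.39 (SE 0.10, adjusted exact permutation p = 0.0127), and every treated library was below every control library. The ratio of DERL1 to DERL2 stayed within the spread, at log2 -0.04 ± 0.23 and -0.05 ± 0.30 (SD, n = 5), with a difference of -0.02 (SE 0.17, exact permutation p = 0.905). In replicate 1 the ratio was -0.44 and -0.58 in the respective groups, whereas the other 8 libraries lay between -0.02 and 0.17. VIMP rose more than DERL1, with a log2 ratio of 1.42 ± 0.08 in control and 1.83 ± 0.24 with tunicamycin (difference 0.41, SE 0.11, adjusted exact permutation p = 0.0127).

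The clearest contrasts were between members and their closest relatives. HERPUD2, which resembles HERPUD1 in domain structure, was at 68.1 ± 13.3 normalized counts in control and 72.5 ± 10.7 with tunicamycin (SD, n = 5), and edgeR's quasi-likelihood test gave an adjusted p of 0.668. The ratio of HERPUD1 to HERPUD2 therefore went from 1.85 to 11.8, a log2 difference of 2.67 (SE 0.20, adjusted exact permutation p = 0.0127). UBE2J2, the other membrane-anchored E2 of this family, was at 306 ± 37.4 and 296 ± 21.7, with an edgeR adjusted p of 0.734. The ratio of UBE2J1 to UBE2J2 went from 0.449 to 1.16, so that UBE2J1 was below its relative in all 5 controls and at or above it in all 5 treated libraries (log2 difference 1.37, SE 0.13, adjusted exact permutation p = 0.0127).

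**Figure D4:**
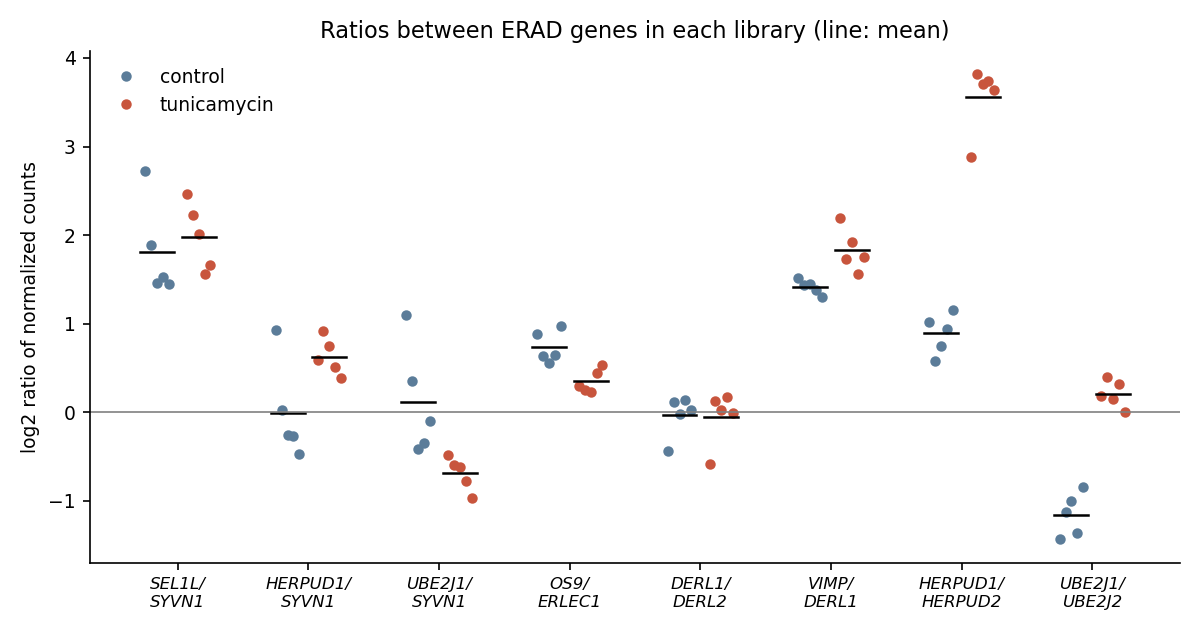
Log2 ratio of normalized counts of paired genes in each library, with the group means; the 8 testable pairs are shown for 5 control and 5 tunicamycin libraries. The groups separate for UBE2J1/SYVN1, OS9/ERLEC1, VIMP/DERL1, HERPUD1/HERPUD2 and UBE2J1/UBE2J2, and overlap for SEL1L/SYVN1, HERPUD1/SYVN1 and DERL1/DERL2.

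The rest of the pathway was read from 72 further ERAD genes in lists by role, of which 69 were tested. Among them 25 (36.2%) were higher, 7 (10.1%) were lower and 37 were not called, beside 17.6% higher and 16.6% lower in all tested genes, and their median log2 fold change was 0.14. The 9 members, with 9 higher, and the lists by role were chosen with earlier results of these data known. The difference between the lists was not tested.

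Luminal factors that recognise substrates or trim their mannose had the highest median among these lists. Of 9 tested genes 7 (77.8%) were higher and FOXRED2 (11.1%) was lower, beside 17.6% and 16.6% of all tested genes. The median log2 fold change of the list was 1.52. DNAJB9, a co-chaperone of BiP, was at 13.4 ± 6.89 normalized counts in control and 183 ± 48.7 with tunicamycin (SD, n = 5), a log2 fold change of 3.76 (SE 0.27, edgeR adjusted p = 5.1e-09), which was more than the estimate for any member. FOXRED2, a flavoprotein of the ER lumen, went from 1621 ± 166 to 845 ± 93.5, a log2 fold change of -0.94 (SE 0.10, edgeR adjusted p = 4.98e-07). EDEM1, EDEM2 and EDEM3, the mannosidase-like proteins that prepare sugars for OS9 and ERLEC1, had log2 fold changes of 2.30, 1.52 and 1.27 and were all called higher. In the same list MAN1B1 was not called, with a log2 fold change of -0.14 (SE 0.15, edgeR adjusted p = 0.501). The EDEM genes and MAN1B1 were named after their values were seen.

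The other ubiquitin ligases of the ER membrane were mixed in direction, with shares not far from those of all tested genes. Of 11 tested, 3 (27.3%) were higher, 2 (18.2%) were lower and 6 were not called. Among all tested genes 17.6% were higher and 16.6% were lower. The median log2 fold change of these ligases was -0.08. The largest rise was that of RNF185, from 23.9 to 38.6 normalized counts (log2 0.69, SE 0.21, edgeR adjusted p = 0.0146), a call that was lost in 2 of 18 alternatives. The largest fall was that of RNF121, from 139 to 95.4 (log2 -0.54, SE 0.12, edgeR adjusted p = 0.00145). Both estimates were smaller in size than that of SYVN1, and the difference was not tested.

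Among ligase cofactors and other membrane factors, 7 of 16 tested genes (43.8%) were higher and 1 (6.25%) was lower. The shares in all tested genes were 17.6% and 16.6%. The lower gene was TMUB2, a ubiquitin-like membrane protein, from 189 to 116 normalized counts (log2 -0.68, SE 0.12, edgeR adjusted p = 0.000283). JKAMP, a membrane protein that binds ERAD components, was at 34.3 ± 5.24 in control and 126.2 ± 59.8 with tunicamycin (SD, n = 5; log2 1.83, SE 0.30, edgeR adjusted p = 0.000116). Its treated libraries were uneven, at 36.3, 124, 110.5, 170.3 and 189.7, and the first of them lay within the control range. In this list INSIG1 was listed at 0 counts in all 10 libraries and UBXN8 was not used here. As for DERL3, the handling of strand and counting was not stated, and the 0 does not show that INSIG1 was unexpressed. Among the other E2 enzymes UBE2G1, a soluble one, was the single gene of 4 (25%) that was called, from 104 to 222 normalized counts (log2 1.07, SE 0.20, edgeR adjusted p = 0.000284).

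Downstream of the membrane, 3 of 9 tested genes for p97 and its cofactors were higher (33.3%) and 1 was lower (11.1%). The shares in all tested genes were 17.6% and 16.6%. VCP, which encodes p97, went from 1052 ± 32.3 to 1624 ± 63.1 normalized counts (SD, n = 5; log2 0.63, SE 0.08, edgeR adjusted p = 3.39e-06), close in size to the change of OS9. SVIP, a small p97-binding inhibitor of ERAD, was lower, from 338 to 261 (log2 -0.37, SE 0.10, edgeR adjusted p = 0.00901). Of 20 tested genes for deglycosylation, deubiquitination and delivery to the proteasome, 4 (20%) were higher and 2 (10%) were lower. Their median of 0.07 was near that of all genes, and GET4 of this list was not tested. USP19, a deubiquitinating enzyme, rose from 95.4 to 148 normalized counts (log2 0.60, SE 0.18, edgeR adjusted p = 0.0131) and was higher in 4 of 5 replicate experiments.

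**Figure D5:**
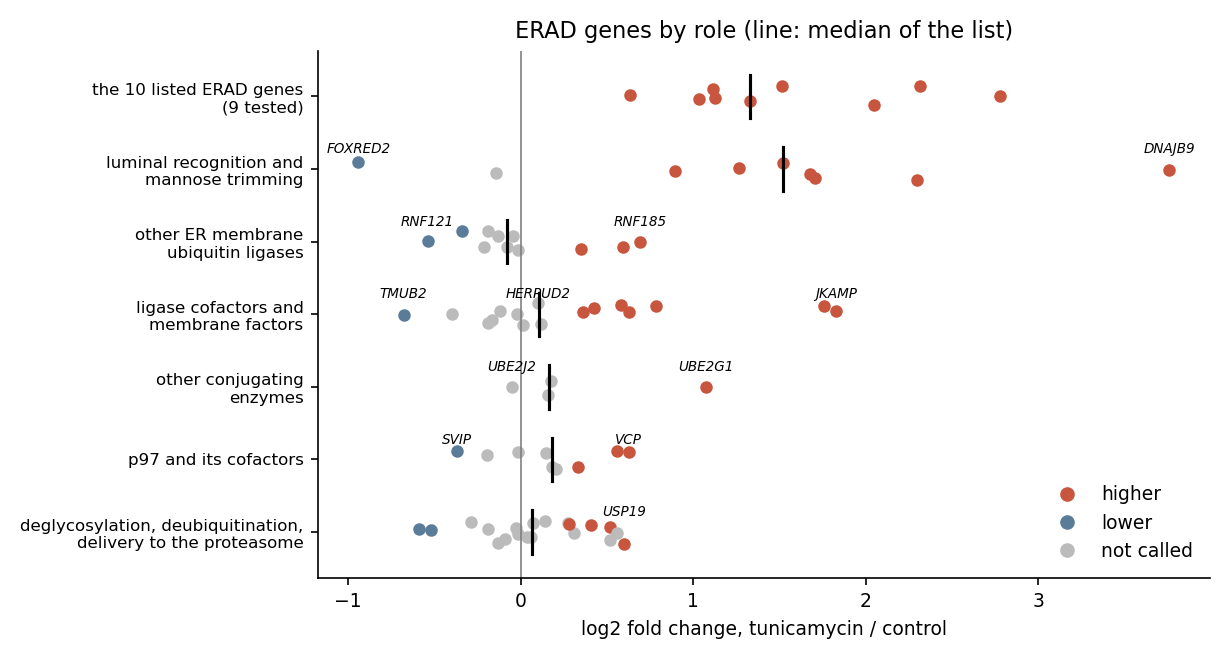
Log2 fold change (tunicamycin against control) of the 9 detected members and the 69 other tested ERAD genes, each point a gene, grouped by role; colours give the call of edgeR's quasi-likelihood test. The members all lie above 0 with a median of 1.33, and luminal factors have a median of 1.52. Medians of the other lists run from -0.08 for the other ubiquitin ligases to 0.18 for p97 and its cofactors, with 0.07 for delivery to the proteasome.

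Over the 10 libraries, the genes outside all lists whose log2 level most resembled the mean standardized level of the 9 members were HSP90B1, which encodes the ER chaperone GRP94, NUCB2, AKNA, SAT1 and ACTR3. Pearson's r was 0.998, 0.997, 0.997, 0.996 and 0.995, across points that share the day of the experiment and the step between conditions, which sets most of r, and it is given as a description. Within the 5 tunicamycin libraries alone r was -0.14 for SAT1 and 0.68 for AKNA, and within the 5 controls it was 0.945 and 0.915. For SAT1 r was thus high over all libraries and within the controls and not within the treated group, a difference that was not tested. Each of these values within a group rests on 5 libraries. Their log2 fold changes were 2.72, 2.25, 2.60, 1.43 and 0.84. HSP90B1 was the most abundant of these, at 5078 ± 739.5 normalized counts in control and 33554 ± 2751 with tunicamycin (SD, n = 5), a change close in size to that of HERPUD1.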

How the data were processed

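RNA-seq libraries were prepared from total RNA of HepG2 cells with the Lexogen QuantSeq 3′ kit. The authors processed the reads with an nf-core pipeline at its defaults, against hg19 and Ensembl transcripts, and deposited raw read counts per gene for 10 libraries, 5 per condition. The methods name the pipeline and not its aligner, counting program or strand setting, which its defaults would fix. Totals of 2234682 to 5029864 counts per library limit the precision of genes with few reads, and intervals for a count of 0 cover counting error only.

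Counts were filtered with filterByExpr (minimum count 2, minimum total 10), TMM-normalized and tested with edgeR 4.0.16 (R 4.3.3) by the quasi-likelihood test, in a model holding condition and no covariate. P values were Benjamini-Hochberg adjusted over 12733 genes with a threshold of 0.05, and glmTreat tested against a 2-fold change. The SE is the absolute log2 fold change divided by the square root of F. The scripts were tested on simulated data. Ratios used a pseudocount of 0.5 and the exact permutation test of scipy 1.17.1.

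The replicate numbers mark experiments on separate days according to the series' design text and so pair the samples. Deviations from the group means of libraries with the same number correlated at 0.36, 0.02, 0.076, 0.162 and 0.137 for replicates 1 to 5, over 9707 genes with a mean normalized count of at least 20. Ratios were not tested in pairs, since sign flips over 5 pairs cannot pass the threshold.

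All members were named, with HERPUD2, UBE2J2, the called gene with the largest rise and the largest fall in each role list, and the 5 genes most correlated with the members. Members, lists and motifs were chosen with earlier results of these data known. Alternatives were DESeq2 1.42.0, its size factors, scaling by library size alone, no filter, the default filter (10 and 15 counts), a replicate block in either tool, thinning to the smallest library, a ratio pseudocount of 5, and leaving out each library. PECAM1 and UBXN8 were not used here, and 1 gene that meets the naming rule is not reported here. Motifs were searched in 35116 RefSeq promoters. Gene models of hg19 were not used here, so that exon overlaps come from GENCODE v44 on GRCh38.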

Additional observations from a re-analysis of the deposited data

Results flagged for a closer look

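In 5 of 66 groups of 5 values examined, a library stood apart from the other 4 by Dixon's criterion at the 95% level, where chance alone flags about 3.3. The log2 ratio of DERL1 to DERL2 was -0.44 in control replicate 1, below the other controls at -0.02 to 0.13, and -0.58 in tunicamycin replicate 1, below the other treated libraries at -0.01 to 0.17. HERPUD2 had 91.2 normalized counts in tunicamycin replicate 1 against 64.6 to 70.1 in the others, and the log2 ratio of HERPUD1 to HERPUD2 was lower there, at 2.88 against 3.63 to 3.82. VCP had 1109 normalized counts in control replicate 3 against 1031 to 1043 in the other controls.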

How the results depend on the processing

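The 9 members were called higher under all 18 alternative fits, with log2 fold changes of 2.69 to 2.85 for HERPUD1 and 0.55 to 0.66 for OS9, and an adjusted p of at most 0.000115. HERPUD1, SEL1L, SYVN1 and VIMP exceeded 2-fold in all 18. With the replicate block, edgeR called 4811 genes, 2499 higher and 2312 lower, and pairing by replicate changed no member's call; DESeq2 with the block lost RNF185 (adjusted p = 0.0531), as did thinning to the smallest library (log2 0.48, adjusted p = 0.203). Scaling by library size alone shifted the median of all genes by -0.08 and gave 1774 higher and 2570 lower genes, with 20 higher and 10 lower among the other ERAD genes. HERPUD2, near 0 in every fit, changed sign to -0.10 after thinning and, without tunicamycin replicate 1, to -0.0052, the lowest of -0.0052 to 0.193 on leaving out each library, and UBE2J2 changed to 0.00 without control replicate 1 (0.0021 unrounded). Leaving out each library moved the difference in the log2 ratio of DERL1 to DERL2 between -0.12 and 0.11, and that of HERPUD1 to SYVN1 between 0.52 and 0.87, where the highest, without control replicate 1, passed. The cause of these changes was not tested. The depth limits genes with few counts.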
